A study of Mus musculus with 6 samples.

Results

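Nuclear-encoded subunits of the oxidative phosphorylation complexes were taken from the count tables by their gene symbols, with no use of measured values. The symbol pattern covered the Nduf subunit series of complex I, Sdha to Sdhd, the Uqcr series, Cyc1, Cycs, the Cox4 to Cox8 series and the Atp5 series, and it matched 89 of 23337 symbols. By complex these were 37 symbols for complex I, 6 for complex II, 9 for complex III, 1 for cytochrome c, 19 for complex IV and 17 for complex V. Of the 89, 83 encode subunits. The other 6 carry matching symbols without being subunits: Cox4nb (now Emc8, of the endoplasmic reticulum membrane complex), Atp5s and Atp5sl (now Dmac2), Cox7a2l (a respiratory supercomplex factor), and the complex II assembly factors Sdhaf1 and Sdhaf2.

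The libraries hold RNA of outer hair cells, sensory cells that amplify sound in the cochlea, taken from mouse cochleae at E18.5, shortly before birth. The cells were sorted by flow cytometry on signal from the Insm1-GFP-Cre allele, which both genotypes carry. The genotypes are Insm1-Het (3 libraries, the controls) and Insm1-KO (3 libraries). Insm1 encodes a zinc-finger transcription factor expressed in developing outer hair cells, and no wild-type library was among the 6. The comparison asks whether the transcripts of the respiratory chain and of ATP synthase differ between outer hair cells of these genotypes.

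Complexes I and II pass electrons from NADH and succinate to ubiquinone, complex III passes them on to cytochrome c, and complex IV reduces oxygen. Complexes I, III and IV pump protons across the inner mitochondrial membrane, and complex V (ATP synthase) uses the gradient to make ATP. Most subunits are encoded in the nucleus, a few in the mitochondrial genome, and all complex II subunits are nuclear. Hair cells rely on this supply for ion transport and synaptic activity. The mitochondrially encoded subunits were not analysed here.

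Coding sequences are shown first for 3 members that share stretches of sequence with other genes, a point that recurs in the results below. They are from GENCODE M21 on GRCm38, written 5′ to 3′ without the stop codon and cut to at most 300 bases, and capitals mark bases lying in a 100-base window that also occurs, letter for letter, in an annotated transcript of another gene. Ndufs5 (complex I, a small supernumerary subunit) lies at chr4:123712710-123718202 on the minus strand, and 213 of its 318 coding bases are so shared (bases 19 to 318 are shown). Cox7c (complex IV) lies at chr13:86044816-86046904 on the minus strand, with all 189 coding bases shared. Uqcrb (complex III) lies at chr13:66900617-66905378 on the minus strand, with 264 of 333 bases shared (bases 1 to 300 are shown).
Ndufs5: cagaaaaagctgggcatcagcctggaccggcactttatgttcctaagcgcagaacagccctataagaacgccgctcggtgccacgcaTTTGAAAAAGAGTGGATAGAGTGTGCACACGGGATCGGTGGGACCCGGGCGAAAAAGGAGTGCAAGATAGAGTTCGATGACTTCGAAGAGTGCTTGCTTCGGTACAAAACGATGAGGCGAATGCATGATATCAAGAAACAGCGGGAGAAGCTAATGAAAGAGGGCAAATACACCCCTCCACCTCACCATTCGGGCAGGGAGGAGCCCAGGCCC
Cox7c: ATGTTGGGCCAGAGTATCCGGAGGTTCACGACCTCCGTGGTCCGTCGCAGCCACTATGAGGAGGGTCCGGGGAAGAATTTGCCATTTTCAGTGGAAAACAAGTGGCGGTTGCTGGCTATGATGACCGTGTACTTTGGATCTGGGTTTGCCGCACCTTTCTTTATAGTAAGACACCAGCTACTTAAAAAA
Uqcrb: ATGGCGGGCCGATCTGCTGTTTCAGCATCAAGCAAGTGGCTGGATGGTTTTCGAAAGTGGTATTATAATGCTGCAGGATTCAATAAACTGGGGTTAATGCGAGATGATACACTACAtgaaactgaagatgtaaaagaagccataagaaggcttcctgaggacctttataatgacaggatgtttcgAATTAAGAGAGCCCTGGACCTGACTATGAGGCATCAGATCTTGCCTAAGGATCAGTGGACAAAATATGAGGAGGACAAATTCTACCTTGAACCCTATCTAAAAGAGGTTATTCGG

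A second set shows 3 genes that encode one protein. Atp5g1 (chr11:96068852-96075670), Atp5g2 (chr15:102662864-102672352) and Atp5g3 (chr2:73908447-73911326), all on the minus strand, encode precursors of the same mature subunit c, which forms the rotating ring of ATP synthase. The ends of the 3 coding sequences are given, aligned without gaps, with capitals at the 59 positions where the 3 genes are not all alike.
Atp5g1: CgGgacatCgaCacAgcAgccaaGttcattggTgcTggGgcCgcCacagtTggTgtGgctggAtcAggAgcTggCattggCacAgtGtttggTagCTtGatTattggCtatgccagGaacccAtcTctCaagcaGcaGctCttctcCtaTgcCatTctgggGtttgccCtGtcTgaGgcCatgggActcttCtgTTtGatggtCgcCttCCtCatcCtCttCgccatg
Atp5g2: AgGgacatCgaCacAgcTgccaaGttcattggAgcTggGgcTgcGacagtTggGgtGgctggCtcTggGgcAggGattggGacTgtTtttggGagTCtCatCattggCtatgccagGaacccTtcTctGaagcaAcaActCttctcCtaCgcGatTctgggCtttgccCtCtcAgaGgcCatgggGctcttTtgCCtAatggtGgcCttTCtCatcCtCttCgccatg
Atp5g3: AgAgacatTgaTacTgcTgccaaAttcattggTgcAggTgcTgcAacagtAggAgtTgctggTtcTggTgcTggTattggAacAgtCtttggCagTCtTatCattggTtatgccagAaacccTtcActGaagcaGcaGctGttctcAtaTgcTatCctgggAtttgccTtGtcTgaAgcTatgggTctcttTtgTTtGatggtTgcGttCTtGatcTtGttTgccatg
Atp5g1 and Atp5g2 were identical at 84.65% of these bases, Atp5g1 and Atp5g3 at 79.39%, and Atp5g2 and Atp5g3 at 78.51%. The longest identical runs were 20, 11 and 8 bases in the same order, all shorter than a 100-base read.

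Library totals were between 10721902 and 12427039 counts for Insm1-Het and between 7705177 and 9748629 for Insm1-KO. Insm1 itself stood at 109.3, 116.2 and 69.2 CPM (a gene's counts scaled to a common library total, with TMM factors) in the Het libraries and at 78.7, 60.3 and 18.7 in the KO libraries. The ranges overlapped, and its log2 fold change was -0.90 ± 0.50 (SE; adjusted p = 0.938, edgeR quasi-likelihood test, Benjamini-Hochberg adjusted). The summed CPM of 8 hair cell markers was between 9327 and 9658 in Het and between 9279 and 10748 in KO, and that of 6 outer hair cell markers was 560.3 to 709.6 and 556.5 to 676.2. The 4 inner hair cell markers summed to between 0.0937 and 7.75 CPM in Het and between 92.0 and 431.2 in KO, without overlap. Most of the KO sum was 1 gene, Brip1, at 76.8, 88.0 and 421.5 CPM; the other 3 markers summed to 15.3, 19.2 and 9.68 CPM in KO and to at most 1.82 in Het, and Slc17a8 was at 0 in KO replicates 2 and 3. Supporting cell markers summed to 1823 to 2394 CPM in Het and 1970 to 2727 in KO. Neuronal markers summed to 886.7 to 1055 and 844.5 to 1510, and mesenchymal markers to 227.4 to 353.6 and 183.7 to 334.8. The lists were uneven. Gjb6 (supporting) reached at most 2.04 CPM, Tubb3 (neuronal) 3.39, and Pou3f4 and Col1a1 (mesenchymal) 2.21 and 17.2. These sums thus came mostly from other genes of each list. Erythroid markers (Hba-a1 and Hba-a2 at 0) reached at most 6.19 CPM, and striated muscle markers (Tnnt2 and Tnni2 at 0) at most 23.4. The part of other cell types in the values below was not tested. In bulk libraries of sorted cells, fewer cells of a type and less RNA per cell cannot be told apart.

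The subunit transcripts took up a nearly equal part of the RNA in the genotypes. The summed counts of the 89 members were 0.847%, 0.748% and 0.751% of all counts in the Het libraries and 0.781%, 0.822% and 0.724% in the KO libraries. The groups overlapped, with means of 0.782% ± 0.0560 (SD, n = 3) and 0.776% ± 0.0492, a log2 ratio of -0.01. A sum over members was given no test, because it is a score over a chosen list. Complex V held 45.6% of the members' counts, complex I 23.1%, complex IV 14.5%, complex III 9.16%, complex II 7.57% and cytochrome c 0.0745%. A single gene, Atp5b, which encodes the catalytic beta subunit of ATP synthase, held 20.5% of them. The 6 symbols that are not subunits held 3.22%.

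Among the complexes the shares stayed close between genotypes. Complex I took up 0.207%, 0.174% and 0.173% of counts in Het and 0.171%, 0.173% and 0.182% in KO. Complex V took up 0.390%, 0.344% and 0.339% in Het and 0.384%, 0.374% and 0.302% in KO. In both, the ranges overlapped, and the log2 ratios of the means were -0.08 and -0.02. Complex II, III and IV differed by log2 ratios of -0.08, 0.11 and 0.07, with overlapping ranges in each. Cytochrome c was the exception, at 0.000588%, 0.000410% and 0.00187% in Het and 0.000205%, 0.000337% and 5.13e-05% in KO. Its KO libraries were all below its Het libraries, and it rests on 1 gene, Cycs, described below.

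**Figure D1:**
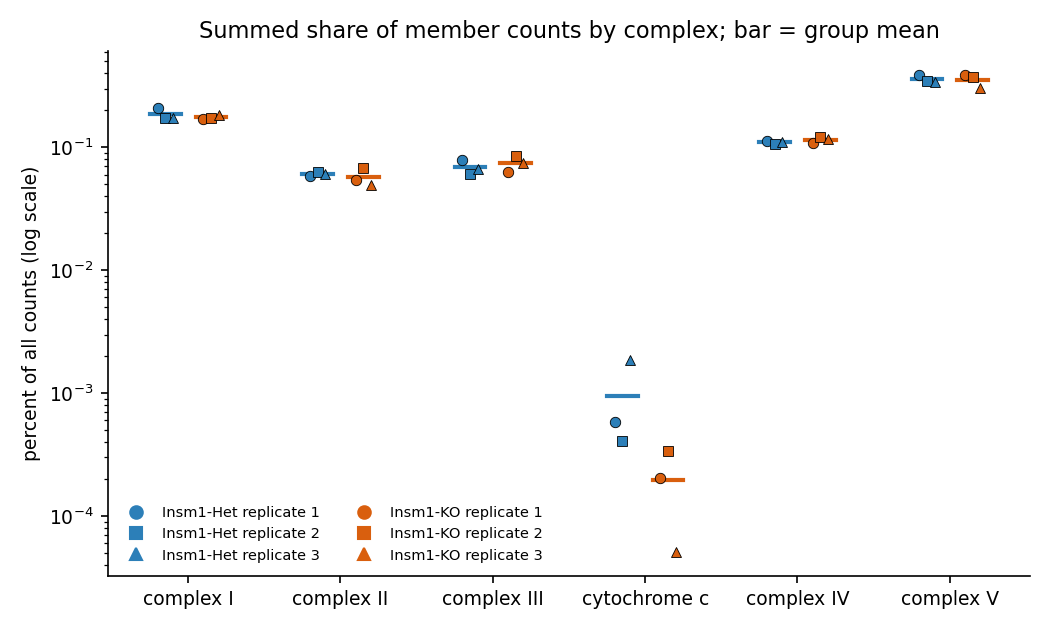
Share of all counts held by the members of each complex, in percent on a log axis, for each library (points) with bars at the mean of each genotype. The 3 Het and 3 KO libraries overlap in every complex except cytochrome c, where the KO libraries are the lower ones.

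Levels were compared between genes per length, as CPM per kilobase of one representative transcript, averaged over the 6 libraries. Complexes IV and V had the higher medians over their subunits, 117 and 110 CPM per kilobase, against 45.0 in complex I, 61.8 in complex II and 62.5 in complex III (tissue isoforms listed under complex IV and Ndufa4l2 left out). Within complex V, Atp5b stood at 833 CPM per kilobase, Atp5a1 (the alpha subunit, its partner in the catalytic head) at 332 and Atp5c1 (gamma, the central shaft) at 241. In complex IV, Cox6a1 reached 303, Cox4i1 232 and Cox8a 227. In complex III, Uqcrh, the hinge subunit, reached 264, well above Cyc1 (cytochrome c1) at 98.3 and Uqcr10 at 90.4. The 4 complex II subunits lay close together, from 45.0 for Sdhb (iron-sulfur subunit) and 47.7 for Sdhc (membrane anchor) to 75.9 for Sdhd (membrane anchor) and 86.7 for Sdha (flavoprotein). In complex I, Ndufa4 led at 279, followed by Ndufb9 at 139 and Ndufa1 at 112. Ndufa4 is now regarded as a complex IV subunit, and its level was like those of the leading complex IV genes.

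No member differed between genotypes past the threshold. Of the 89 members, 85 had at least 1 count in some library and 81 passed the filter on low counts and were tested. By the edgeR quasi-likelihood test, Benjamini-Hochberg adjusted over 11714 genes, 0 members were called, as were 0% of all genes, and the lowest adjusted p of a member was 0.92. DESeq2 and limma-voom also called 0 members, while over all genes they called 26 and 0. At an unadjusted p under 0.05, 3 of the 81 tested members (3.70%) were found, against 5.34% of all tested genes. All 3 were higher in KO, a direction that held for 3.19% of all genes, with 2.15% lower. In 4 members all KO libraries were above all Het libraries (5.08% of all genes) and in 2 all were below (6.1% of all genes), together 7.41% of members against 11.2% of all genes. Both totals were under those of all genes. By DESeq2, 3 members had an unadjusted p under 0.05, against 7.40% of all genes, and by limma-voom 2 had, against 5.17%. The edgeR count rested on single libraries: it was 1, 0 and 1 without Het replicates 1, 2 and 3, and 5, 1 and 1 without KO replicates 1, 2 and 3. The shares of all genes in those fits are not given here.

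The members' fold changes lay on both sides of 0. The log2 fold change (KO over Het) was above 0 for 43 and below 0 for 38 tested members, with a median of 0.05, against 0.02 over all tested genes, and its quartiles were -0.15 and 0.40. The median standard error was 0.48 for members and 0.65 for all genes. For 26 members the 95% interval lay within 1 log2 unit of 0 on both sides, so a change of more than 1 log2 unit was outside the interval for those genes, while for the other members it was not. Under scaling by library size only, the median of all genes moved to -0.05 and that of the members to -0.02, so the members' median stayed slightly above that of all genes.

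**Figure D2:**
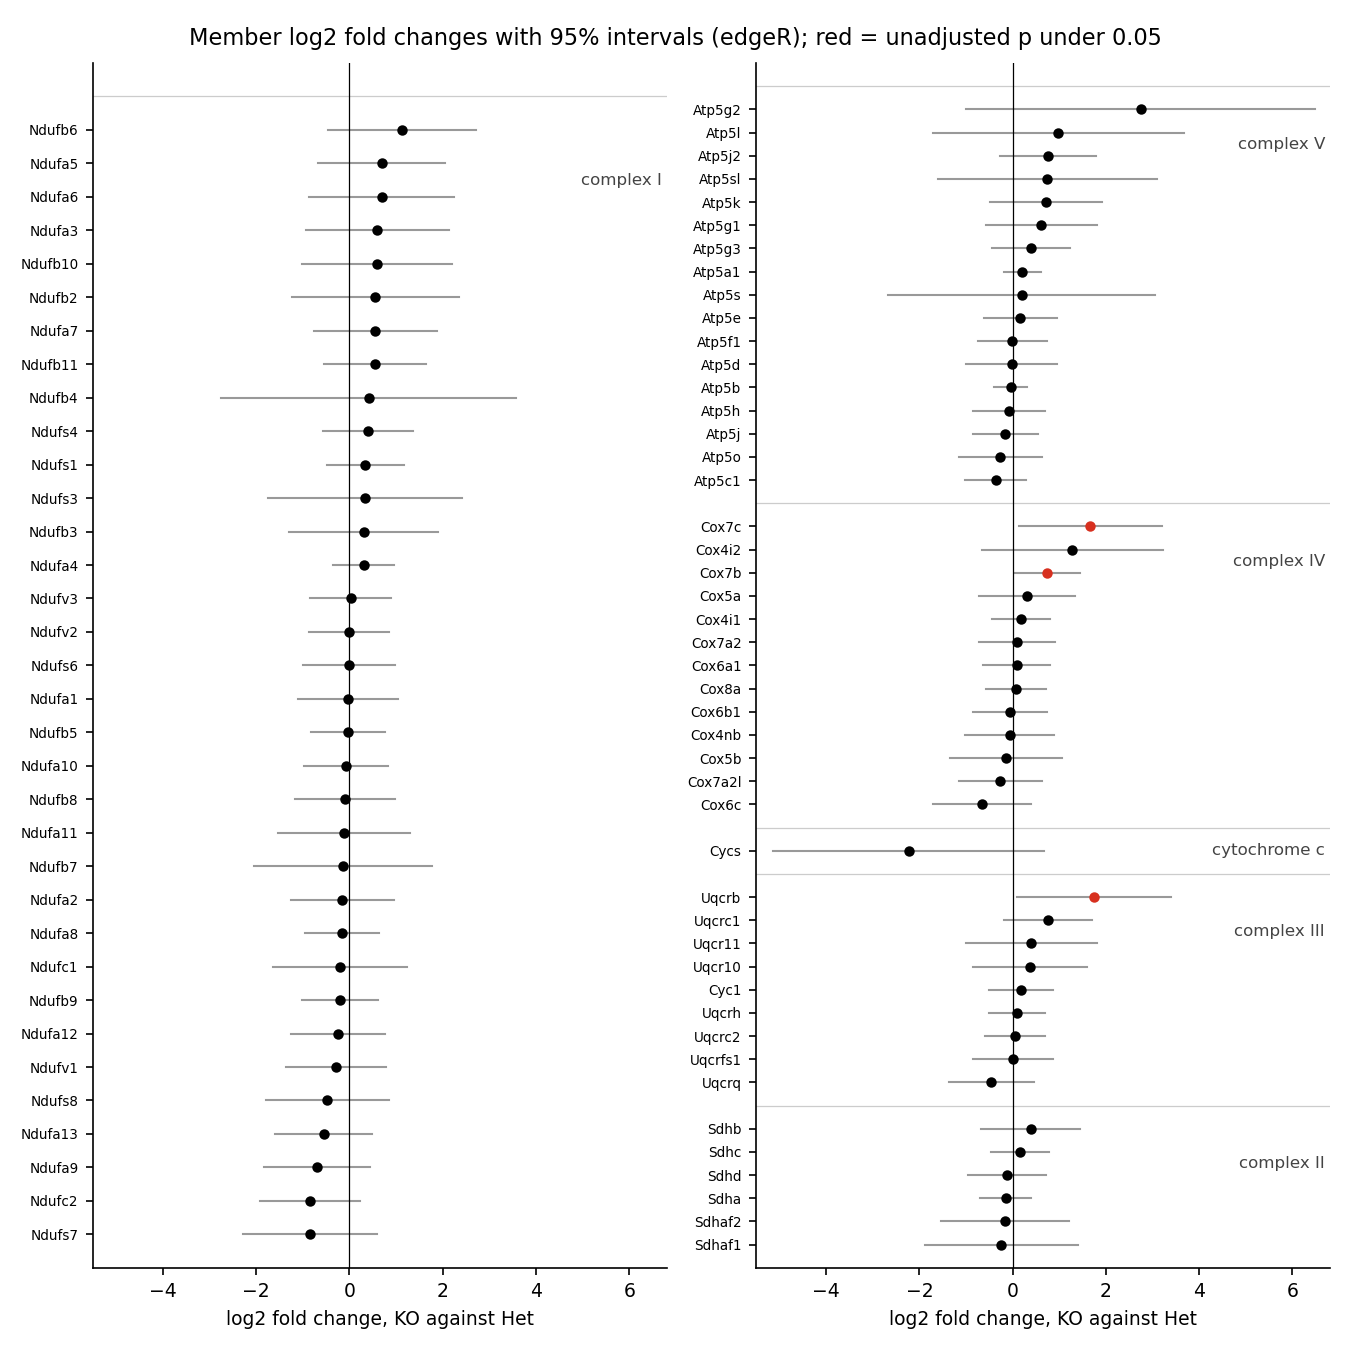
Log2 fold change of the tested members (1 is not drawn), KO over Het (x axis, points), with its 95% interval from the edgeR fit, by complex. Every interval drawn spans 0 except those of Cox7c, Cox7b and Uqcrb, drawn in red.

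Complex I gave no member that differed at an unadjusted p under 0.05, against 5.34% of all genes. It also gave none without overlap of the genotypes, against 11.2% of all genes. Of its 35 tested symbols, 15 were above 0 and 20 below, with a median log2 fold change of -0.03. The 7 tested core subunits, which carry the flavin and iron-sulfur clusters and bind NADH and ubiquinone, had a median of -0.29 with 5 below 0, and the 28 tested supernumerary subunits a median of -0.02. Ndufa4 stood at 151.2, 150.1 and 155.4 CPM in Het and at 151.3, 141.0 and 271.4 in KO. Its libraries were alike apart from KO replicate 3, and its log2 fold change was 0.30 with the 6 libraries and -0.05 without that one. Ndufb9 (a membrane-arm subunit) was at 110.7, 99.3 and 104.2 CPM in Het and 101.3, 121.8 and 49.6 in KO, a log2 fold change of -0.20, with the KO range enclosing the Het range. Ndufb6, another membrane-arm subunit, had the largest change in complex I, with 29.0, 36.0 and 7.90 CPM in Het and 24.9, 23.2 and 110.6 in KO. Only KO replicate 3 was high, and its log2 fold change of 1.12 became -0.01 without that library. Ndufv1, the core subunit of the NADH site, had a log2 fold change of -0.29 (95% interval -1.37 to 0.79), and it was named for its role with its value known.

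Complex II, which also works in the tricarboxylic acid cycle, held no member without overlap of the genotypes, against 11.2% of all genes. Sdha stood at 226.7, 299.5 and 267.4 CPM in Het and 221.7, 299.3 and 193.5 in KO, with overlapping ranges. Its log2 fold change was -0.15 (95% interval -0.70 to 0.40). Sdhb, Sdhc and Sdhd had log2 fold changes of 0.39, 0.16 and -0.13. None of the 4 subunits differed at an unadjusted p under 0.05, against 5.34% of all genes. The assembly factors Sdhaf1 and Sdhaf2, which fit the flavin and iron-sulfur parts, were at -0.24 and -0.16.

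Complex III gave 1 member at an unadjusted p under 0.05, Uqcrb, the small subunit that binds ubiquinone. Uqcrb stood at 7.74, 7.40 and 9.72 CPM in Het and at 12.9, 39.3 and 31.3 in KO. Every KO library was above every Het library, with KO replicate 1 closest to the Het values. Its log2 fold change was 1.75 (95% interval 0.09 to 3.40), with an unadjusted p of 0.0397 and an adjusted p of 0.92 by edgeR's quasi-likelihood test. Its coding sequence is one of those shown above with shared bases in capitals. Over its whole transcript, 15.83% of the 100-base windows also occur in other genes. Uqcrq (a small membrane subunit) went the other way, at 57.7, 68.2 and 72.9 CPM in Het and 39.2, 48.7 and 56.9 in KO. The highest KO library was just under the lowest Het library, and its log2 fold change of -0.46 had an unadjusted p of 0.299. The remaining 7, Cyc1, Uqcrh and Uqcrfs1 (the Rieske iron-sulfur protein) among them, lay between 0.00 and 0.76 with intervals spanning 0. Over the complex, 8 of 9 members lay above 0, with a median of 0.18.

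Cytochrome c, the soluble carrier from complex III to complex IV, was read through Cycs alone, at chr6:50562563-50566538 on the minus strand. Its counts were 69, 44 and 232 in Het and 19, 26 and 5 in KO, or 5.62, 4.12 and 18.3 CPM against 2.03, 3.39 and 0.556. Het replicate 3 was far above the other Het libraries, and the lowest Het library was only slightly above the highest KO library. The log2 fold change was -2.23 (95% interval -5.14 to 0.68), with an unadjusted p of 0.123 by edgeR, and it was -1.28 without Het replicate 3. Of its 100-base windows, 24.7% also occur in other genes.

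Complex IV held the other members at an unadjusted p under 0.05. Cox7b, a small nuclear subunit of cytochrome c oxidase (chrX:106015700-106022450, plus strand), stood at 123.9, 80.9 and 86.5 CPM in Het and 124.2, 204.0 and 160.8 in KO. Het replicate 1 and KO replicate 1 were nearly equal, so the groups were separate by a narrow margin. Its log2 fold change was 0.75 (95% interval 0.05 to 1.44; unadjusted p = 0.0373, adjusted p = 0.92, edgeR quasi-likelihood test), and it was 0.56 to 0.96 when each library was left out in turn. None of its 100-base windows occur elsewhere. Cox7c stood at 10.4, 11.7 and 7.11 CPM in Het and 17.8, 35.3 and 39.8 in KO, with a clear gap between the groups. Its log2 fold change was 1.67 (95% interval 0.13 to 3.20; unadjusted p = 0.0353, adjusted p = 0.92, edgeR), and its coding sequence is wholly within shared windows. Over its whole transcript, 44.44% of the 100-base windows also occur in other genes. Over the complex, 8 tested members were above 0 and 5 below, with a median of 0.09.

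**Figure D3:**
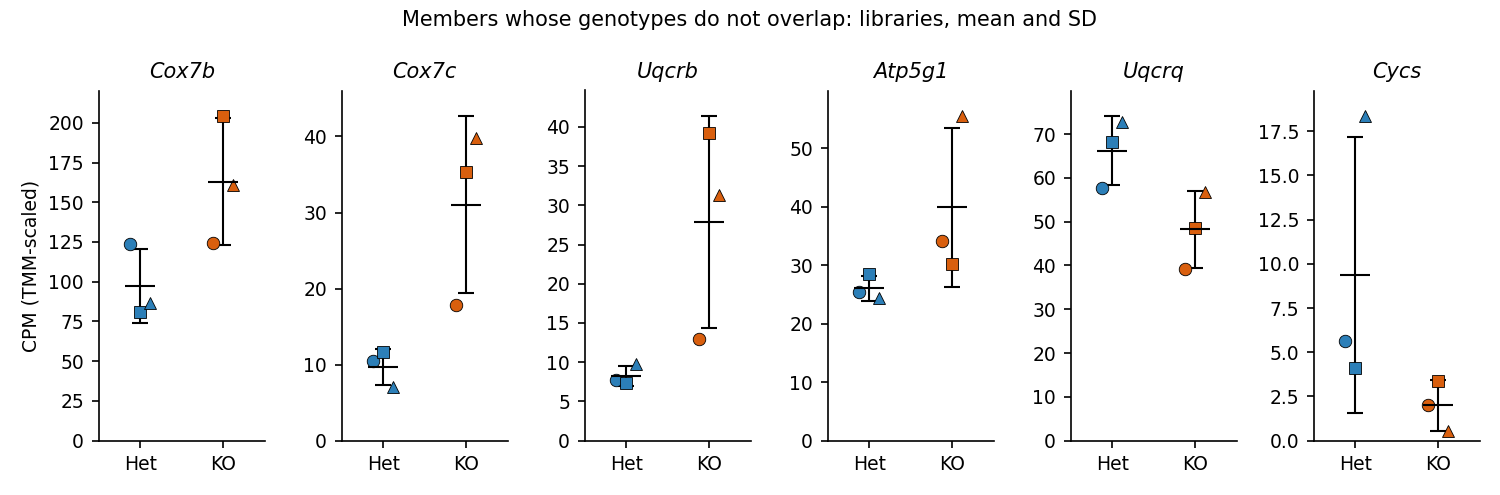
CPM in each of the 6 libraries (points) with mean and SD for the 6 members whose Het and KO ranges do not overlap: Cox7b, Cox7c, Uqcrb, Atp5g1, Uqcrq and Cycs. KO is higher in the first 4 and lower in Uqcrq and Cycs.

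Among the isoforms of complex IV, the ubiquitous forms were the abundant ones. Cox4i1, the general form of subunit 4, was at 232 CPM per kilobase and Cox4i2, an isoform known from lung, at 28.9. Cox6a1, Cox6b1, Cox7a2 and Cox8a (303, 122, 112 and 227 CPM per kilobase) had muscle or testis counterparts at or near 0. Cox6a2, Cox7b2 and Cox8c had 0 counts in all 6 libraries, and Cox8b had 1 count, in KO replicate 1. Cox6b2 had 3, 2 and 8 counts in Het and 51, 1 and 0 in KO, and Cox7a1 had 0, 40 and 6 in Het and 0, 2 and 0 in KO. In each, 1 library held most of the counts. For a gene with 0 counts, the limit that 3 counts allow was 0.237 to 0.391 CPM of assigned counts in these libraries. Cox4i2 had 9.61, 12.6 and 14.5 CPM in Het and 14.4, 4.57 and 70.3 in KO. KO replicate 3 alone was high, and the log2 fold change of 1.28 became -0.36 without it. Ndufa4l2, the hypoxia-responsive relative of Ndufa4, had 3 counts, all in KO replicate 1.

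In complex V, the catalytic head had small fold changes with narrow intervals that spanned 0. Atp5b (chr10:128083273-128090391, plus strand) stood at 1780.0, 1560.4 and 1521.3 CPM in Het and at 1763.5, 1650.1 and 1303.7 in KO. KO replicate 3 was the lowest library and the others overlapped, with means of 1621 ± 139 (SD, n = 3) and 1572 ± 240. The log2 fold change was -0.04 (95% interval -0.40 to 0.32), which leaves out a change of 1 log2 unit. Atp5a1 was at 746.9, 719.8 and 818.3 CPM in Het and 991.0, 906.5 and 743.0 in KO, with overlapping ranges. Its log2 fold change was 0.21 (95% interval -0.19 to 0.61), and 0.33 without KO replicate 3. Atp5c1 was at 316.4, 387.0 and 247.5 CPM in Het and 316.8, 279.1 and 141.7 in KO, a log2 fold change of -0.37 that was -0.08 without KO replicate 3. The 4 peripheral stalk genes (Atp5f1, Atp5h, Atp5j and Atp5o), which hold the head still against the turning ring, were all a little below 0, from -0.27 to -0.01. The 3 membrane-part genes (Atp5j2, Atp5k and Atp5l) were all above 0, from 0.71 to 0.98, with intervals spanning 0. The highest, Atp5l, had 37, 44 and 41 counts in Het and 36, 56 and 84 in KO, with 61.35% of its windows shared. In Atp5j2 the lowest library was KO replicate 1, at 35.8 CPM.

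The c ring genes, whose aligned sequences are given above, differed in level and in spread. Per coding length, Atp5g3 stood at 360 CPM per kilobase, Atp5g1 at 80.9 and Atp5g2 at 19.8. Per transcript length, Atp5g3 was again the highest (213), but Atp5g1, with a representative transcript of 4715 bases, was below Atp5g2 (11.8). Atp5g1 had 25.3, 28.5 and 24.4 CPM in Het and 34.1, 30.3 and 55.4 in KO. All KO libraries were above all Het libraries, and its log2 fold change was 0.61 (unadjusted p = 0.285, edgeR). Atp5g3 had 144.6, 137.4 and 111.7 CPM in Het and 80.9, 158.2 and 281.0 in KO, a log2 fold change of 0.40 that was -0.13 without KO replicate 3. Atp5g2 had 1.38, 0 and 5.30 CPM in Het and 0.214, 4.17 and 40.8 in KO. KO replicate 3 alone was high, and the log2 fold change of 2.75 was -0.02 without it. Of the 100-base windows of Atp5g2, 86.4% also occur in other genes.

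KO replicate 3 stood apart from the other libraries over the members. The SD of the members' log2 deviation from their mean was 1.06 there and 0.434 to 0.716 in the other 5 libraries, against 1.39 and 0.851 to 1.06 over all genes. It held the highest or lowest value of 47 of the 81 tested members (58.0%), against 51.3% of all genes. Its correlation with the other libraries over the members was 0.629 to 0.722, where other pairs reached 0.943 (across genes, which are not independent replicates). It also had the lowest Insm1 level, the highest Brip1 level and a TMM factor of 0.924, while the other 3 inner hair cell markers summed to less there than in the other KO libraries. Besides the fold changes given above with and without it, leaving it out turned the sign for Ndufb9 (0.099), Ndufa1 (0.18), Sdhb (-0.047), Sdhd (0.18), Uqcr10 (-0.22), Cox6a1 (-0.14), Cox8a (-0.093) and Atp5b (0.083), all on the log2 scale.

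**Figure D4:**
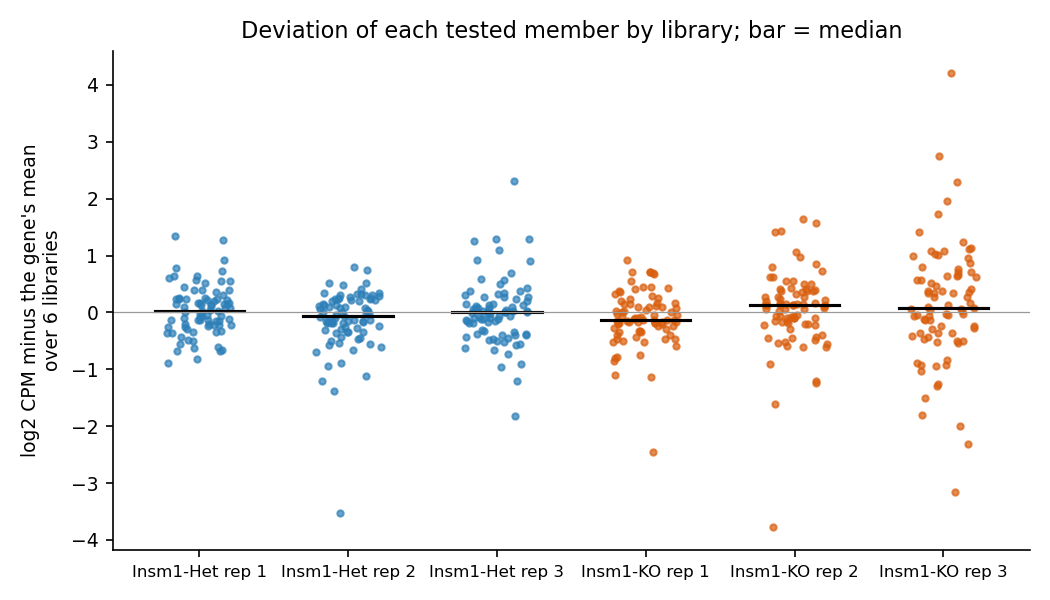
Log2 deviation of each tested member from its mean over the 6 libraries, one column of points per library with a bar at the median. KO replicate 3 has the widest spread, with an SD of 1.06 against 0.434 to 0.716 in the others.

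Sequence shared with other genes went with low levels among the subunits. Over the 75 subunits that are not tissue isoforms, 11 had at least 10% of their 100-base windows in other genes and 59 had none. The 11 were Atp5g2, Atp5h, Atp5l, Cox6c, Cox7c, Cycs, Ndufa12, Ndufb4, Ndufs3, Ndufs5 and Uqcrb. Their median level was 11.8 CPM per kilobase (range 0 to 129), against 66.6 (range 25.4 to 833) for the 59. The Spearman correlation between shared windows and level over the 75 was -0.37, a description over genes that share libraries and annotation. With windows of 50 bases it was weaker, at -0.23. Of the 8 lowest subunits per length, 6 were among the 11. How the authors' counting treated reads that map to several places is not given in the sources used here, and its part in these levels was not tested.

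**Figure D5:**
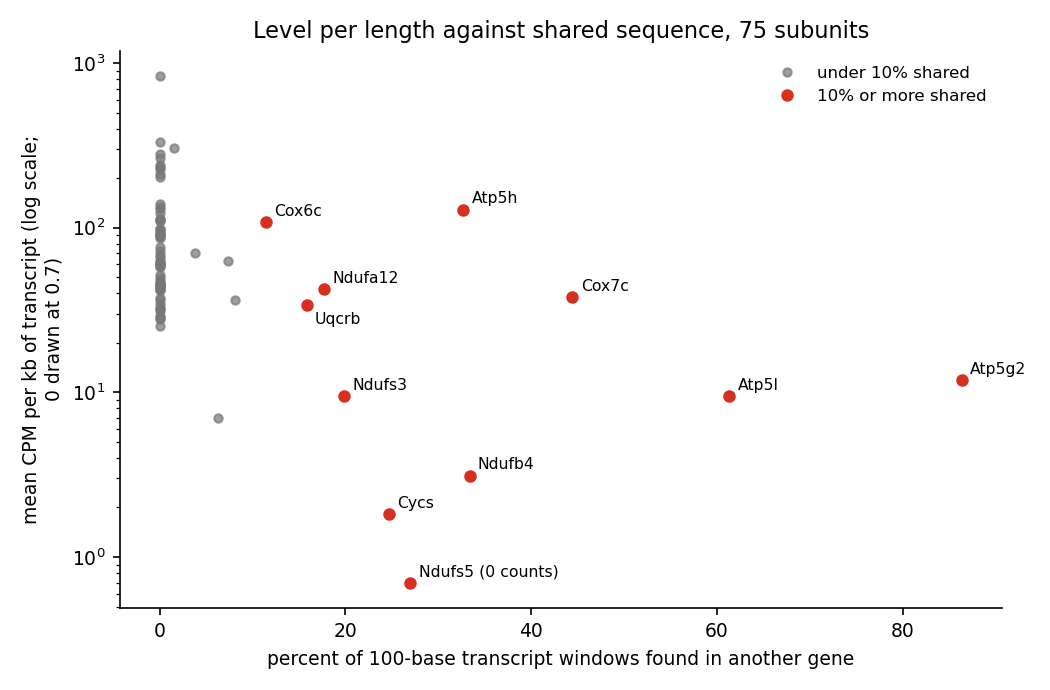
Percent of 100-base windows of each subunit that occur in other genes (x axis) against its mean level in CPM per kilobase (y axis, log scale, with Ndufs5 at 0 drawn at the foot). The 11 subunits sharing at least 10% sit lower, with a median of 11.8 against 66.6 for those sharing none.

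Ndufs5 was counted in no library. It had 0 assigned counts in all 6 libraries. This limits the counts assigned to it and not its transcript level. Of the 100-base windows of Ndufs5, 27% also occur in other genes. The members with larger shares (Atp5h, Ndufb4, Cox7c, Atp5l and Atp5g2) had counts in every library, apart from Atp5g2 in Het replicate 2. Eno1 and Rpl26, which nearly every cell uses, were also listed at 0 in all 6 libraries. Why these genes had no counts was not tested. BC002163 (chr16:42955631-42955949, plus strand), an annotated processed pseudogene that matches the capital letters of the Ndufs5 sequence above and has its own row, held 107, 170 and 103 counts in Het and 69, 143 and 130 in KO. The pseudogene was thus counted in every library. In CPM the pseudogene was at 8.71, 15.9 and 8.14 in Het and 7.37, 18.7 and 14.5 in KO, with a log2 fold change of 0.30 (adjusted p = 0.996, edgeR quasi-likelihood test, Benjamini-Hochberg adjusted). For Cox7c the copy Gm10012, which shares 23.36% of its windows, had 6, 2 and 19 counts in Het and 2, 2 and 1 in KO. BC002163 and Gm10012 were chosen after their values were seen.

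Genes that act around the complexes were read from lists of related genes, with 0 called in each list by edgeR. Of 45 tested assembly factors, which build the complexes and include Sdhaf1 and Sdhaf2, 0 were at an unadjusted p under 0.05, and the most abundant, Coa5 (listed as 6330578E17Rik), had 267.7 ± 32.9 CPM in Het and 283.7 ± 120.8 in KO (SD, n = 3). Of 4 tested genes listed as subunits outside the symbol pattern, 1 was, Atpif1. It encodes the inhibitor of ATP synthase, not a subunit, and had 84.6 ± 12.5 CPM in Het and 140.0 ± 35.7 in KO (unadjusted p = 0.0463, edgeR). Of 17 tested tricarboxylic acid cycle genes 1 was, Mdh2 (malate dehydrogenase), at 251.1 ± 24.1 CPM in Het and 371.9 ± 72.8 in KO (unadjusted p = 0.0310, edgeR), while Cs (citrate synthase) was the most abundant at 441.7 and 484.3. These lists were small, and 5.34% of all genes had such a p. Of 75 tested mitochondrial ribosomal proteins 5 were (6.67%), all higher in KO, a direction that held for 3.19% of all genes. They were Mrpl3, Mrpl38, Mrps27, Mrpl2 and Mrpl34, with Mrpl3 at 27.6 ± 6.18 CPM in Het and 91.7 ± 53.5 in KO. KO replicate 3 was the highest library in each of them, and the genotypes overlapped in Mrpl2 and Mrpl34. The most abundant of that list, Mrpl17, had 89.1 CPM in Het and 119.4 in KO. Besides Gabpa and the other most abundant genes, the related genes named here (Mrpl3, Mdh2, Atpif1, Tfam and Ppargc1a among them) were picked with their values known. The others had none: 18 regulators of mitochondrial biogenesis, 16 glycolytic enzymes, 77 cytosolic ribosomal proteins and 6 carriers and porins. Aldoa, the glycolytic gene with the most assigned counts, had 599.2 CPM in Het and 505.0 in KO. Gapdh had 24, 34 and 17 counts in Het and 10, 44 and 10 in KO, with 78.05% of its 100-base windows shared. Eno1, with 59.02% shared, had 0. The glycolysis list thus describes assigned counts and not the level of the pathway. Rpl4, the most abundant cytosolic ribosomal gene, was at 1238 and 1012 CPM. Slc25a4 (the ADP/ATP exchanger), the most abundant carrier, was at 427.0 and 355.1. The most abundant regulator, Gabpa (a subunit of the ETS factor that binds many of these promoters), had 164.2 CPM in Het and 159.1 in KO, and Tfam (mitochondrial DNA packaging and transcription) had 31.6 and 31.3. Ppargc1a, the coactivator of mitochondrial biogenesis, was at 0 counts in all 3 Het libraries, had 51, 0 and 111 counts in the KO libraries, and was below the filter. Summed shares of the lists differed by log2 ratios from -0.20 (glycolysis) to 0.41 (subunits outside the pattern), and all overlapped. The value of 0.41 rested largely on Atpif1. The other genes of that list went from 12.8 CPM in Het to 13.4 in KO (Ndufab1), 12.2 to 16.0 (Usmg5) and 45.3 to 46.6 (2010107E04Rik). The glycolysis value rested on KO replicate 3 and was 0.01 without it, and that of carriers and porins went from -0.19 to -0.09.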

How the data were processed

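RNA depleted of ribosomal RNA was sequenced from sorted outer hair cells, with complementary DNA primed by random hexamers, amplified, and read as pairs of 100 bases, per the labels' protocols. The authors deposited raw read counts per gene symbol, 1 file of 23337 symbols per library, not normalized. Trimmomatic, STAR and HTSeq were used with build GRCm38 (mm10), per the submitters' processing notes. Tool versions, annotation, strandedness and the handling of multiply mapping reads were not given in the sources used here. Without knowing strandedness, reads in exons shared by genes on opposite strands, such as Cox4i1 and Cox4nb, cannot be assigned to either. Overlaps on the same strand, as over 31.87% of Ndufb2, would stay ambiguous with it known. In GENCODE M21, which may differ from the annotation used for counting, 27 of 89 members overlap another gene's exons. For 13 of them the overlap covers at least 20% of their length.

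All other values were computed here from those deposited counts. The filter was filterByExpr (minimum count 10, minimum total 15), which left 11714 genes and removed 0.274% of counts. TMM factors scaled the libraries. The main test was the quasi-likelihood F test of edgeR 4.0.16 (R 4.3.3), with genotype as the only term. Benjamini-Hochberg adjustment was over all genes, with a threshold of 0.05. The test was run on simulated data, but the outcome is not given here and is not used as support. DESeq2 1.42.0 and limma-voom (limma 3.58.1) were alternatives, with other scalings, filters, fits, a replicate block and each library left out. The standard error is the size of the log2 fold change over the square root of F, with 95% intervals. Floors of 3 counts cover counting error only. Levels per length use 1 GENCODE M21 transcript per gene. The labels do not say whether libraries came from separate animals or pools, so every p-value reflects only how these libraries vary, possibly for technical reasons.

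The members and lists were chosen with earlier results of these data known. Named were Insm1, and in each complex the 3 members highest per length, those with an unadjusted p under 0.05 or without overlap, the largest change, tissue-isoform pairs, and the most abundant gene of each related list (assembly factors, subunits outside the pattern, regulators, tricarboxylic acid cycle, glycolysis, mitochondrial and cytosolic ribosomal proteins, carriers and porins). Marker lists covered hair, inner hair, outer hair, supporting, erythroid, striated muscle, neuronal and mesenchymal cells. Single values of 1 member and 1 marker are not reported here.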

Additional observations from a re-analysis of the deposited data

How the results depend on the processing

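The number of members called, 0, was the same under every alternative, as was the number of related-list genes called. The count of members with an unadjusted p under 0.05, which was 3, was 1 with no filter on low counts (Cox7b), 5 in the newer form of the fit (Cox7b, Cox7c, Uqcrb, Atp5g2 and Cycs), 0 with a replicate block and 1 among members sharing under 10% of windows (an alternative chosen after the data were seen). Leaving out each library in turn gave 0 (without Het replicate 2) to 5 (without KO replicate 1). With the replicate block 4.22% of all genes had such a p, against 5.34% in the main fit. For the other settings of this paragraph the share of all genes is not given. Their counts therefore cannot be told from a shift over all genes. Same-numbered libraries of the 2 genotypes correlated in their deviations at 0.0101, 0.0073 and 0.0144. Differently numbered pairs lay between -0.0274 and 0.0227. Such values cannot show whether same-numbered libraries were prepared together, and this was not tested. The replicate block moved the count from 3 to 0. The complex IV log2 ratio of shares was 0.14 with TMM-scaled totals, and that of complex V was 0.16 as a mean of log2(CPM + 1). Leaving out a library moved the log2 ratio of shares to between -0.06 and 0.05 for all members, -0.12 and 0.01 for complex I, -0.22 and 0.01 for II, -0.00 and 0.22 for III, 0.03 and 0.12 for IV, -0.08 and 0.09 for V, and -2.90 and -1.33 for cytochrome c. The log2 fold change changed sign with a library left out for these named genes, ranging from -0.050 to 0.49 for Ndufa4, -0.46 to 0.10 for Ndufb9, -0.37 to 0.18 for Ndufa1, -0.0057 to 1.52 for Ndufb6, -0.38 to 0.18 for Sdhd, -0.047 to 0.58 for Sdhb, -0.012 to 0.20 for Uqcrh, -0.14 to 0.39 for Cyc1, -0.22 to 0.64 for Uqcr10, -0.14 to 0.30 for Cox6a1, -0.019 to 0.38 for Cox4i1, -0.093 to 0.18 for Cox8a, -0.14 to 0.083 for Atp5b, -0.020 to 4.42 for Atp5g2, -0.36 to 1.80 for Cox4i2, -0.17 to 0.091 for Cox6b1, -0.089 to 0.23 for Cox7a2 and -0.13 to 0.74 for Atp5g3. Cox8a was at -0.0025 under scaling by library size only, which moved the median of all genes from 0.02 to -0.05, a shift of about the same size. In each case the cause was not tested. Over all settings, 364 log2 fold changes of named genes kept their direction and 26 did not, and the ranking of levels per length within complexes depended in part on the length used.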
